A study of Mus musculus with 6 samples.

Results

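The aryl hydrocarbon receptor group examined here comprised *Cyp1a2*, *Cyp1a1*, *Ahr*, *Arnt* and *Tiparp*. All probes of the liver table carrying one of these symbols were taken, 7 probes of 5 genes among 25697 probes and 18138 symbols. The group was chosen by the measured values of *Cyp1a2* in the comparison described below, in which its signal was much lower in hSRY-ON liver, so the values of the members are given as a description without a test. The comparison asks what activating human *SRY*, the testis-determining gene of the Y chromosome, outside its usual tissue does to the liver. RNA from male pups at postnatal day 6 was hybridised to mouse bead arrays, with 3 mice per group. Both groups were on an FVB/N background, written FVB by the labels, and carried Signalox-hSRY, a single-copy transgene at the *H11* locus driven by the CAG promoter, which is active in most cell types. In hSRY-OFF mice the transgene was not recombined, and by its design it expressed the red fluorescent protein DsRed2 while human *SRY* stayed silent. In hSRY-ON mice Cre protein that a *Ddx4-Cre* mother had left in the oocyte had recombined the transgene in the early embryo, which deletes *DsRed2*. The hSRY-ON mice used for RNA did not themselves carry *Ddx4-Cre*. hSRY-ON mice thus expressed a FLAG-tagged human SRY together with EGFP throughout the body, not in liver alone. The paper reports that hSRY-ON pups hardly suckled, lacked milk in the stomach, grew more slowly than controls and had fatty livers. Some had died before postnatal day 6. The groups therefore also differed in feeding, growth and survival, and by design in DsRed2. The part of these in the values below was not tested. The array carries probes to mouse genes, so activation of the human transgene was not measured here.

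*Ahr* encodes a ligand-activated transcription factor of the bHLH-PAS family. In the absence of ligand the receptor is held in the cytoplasm by Hsp90 and its co-chaperones, and after binding planar aromatic compounds, tryptophan metabolites or indoles it enters the nucleus, pairs with Arnt and binds DNA at a GCGTG core. *Cyp1a1* is its classical inducible target, *Cyp1a2* is both induced by the receptor and expressed in unexposed liver, mainly in hepatocytes around the central vein, and *Tiparp*, an ADP-ribosyltransferase, is a target that represses the receptor in turn.

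*Cyp1a2* and *Cyp1a1* lie head to head in the mouse genome, with 0 other protein-coding genes between them in the RefSeq gene order of GRCm38.p6. The 250 bases before the start of each are shown because the GCGTG core sits next to the TATA element in one of them only. In the RefSeq promoter table of GRCm38.p6 these windows are chr9:57683656-57683905 on the minus strand for *Cyp1a2* and chr9:57697363-57697612 on the plus strand for *Cyp1a1*. Both are written 5′ to 3′ along the gene, and capitals mark GCGTG, searched on either strand as GCGTG or CACGC, and TATAAA, searched on the strand of the gene.
Cyp1a2: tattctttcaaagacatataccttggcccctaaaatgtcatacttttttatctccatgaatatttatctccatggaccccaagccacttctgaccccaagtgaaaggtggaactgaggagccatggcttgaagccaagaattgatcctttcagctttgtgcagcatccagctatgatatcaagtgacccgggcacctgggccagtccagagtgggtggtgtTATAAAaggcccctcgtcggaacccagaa
Cyp1a1: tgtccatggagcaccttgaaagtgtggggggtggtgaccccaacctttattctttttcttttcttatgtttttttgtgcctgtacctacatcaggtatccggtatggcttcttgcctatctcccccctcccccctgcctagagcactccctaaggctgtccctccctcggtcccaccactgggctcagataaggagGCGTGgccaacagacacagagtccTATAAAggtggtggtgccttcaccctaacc
The core was found once before *Cyp1a1*, starting at -54 relative to the transcription start, and 0 times in the *Cyp1a2* window. TATAAA was found in both windows, at -29 for *Cyp1a2* and -30 for *Cyp1a1*. The windows of *Arnt* and *Tiparp* each held 1 core, at -29 and -170, and *Ahr* was not matched in the table. Across all 32851 windows of the table, 28.2% held the core and 7.60% held TATAAA, so a match describes the letters only and says nothing of receptor binding, and more distant elements lie outside these windows.

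The 6 arrays differed little in depth, with median intensities of 147 to 165 and 40.2% to 41.9% of probes detected, where a probe is called detected at a detection p under 0.01 against the negative control beads of its array. Of all arrays left out in turn, leaving out hSRY-ON replicate 3 gave the most probes called (1944 higher and 2116 lower). The median spread between arrays was 1.49 times as large in the hSRY-ON group as in the hSRY-OFF group, and 0.992 times without that array. The second ratio sets an SD over fewer arrays against one over 3, which by itself lowers it, and it was not computed without another hSRY-ON array. The values below are also given without hSRY-ON replicate 3 where it matters. Normalised values are log2 intensities after background correction and quantile normalization, and all differences are hSRY-ON minus hSRY-OFF. Over the 10734 probes detected on at least 3 arrays, the median difference was 0.02.

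*Cyp1a2*, which encodes the hepatic cytochrome P450 that oxidises caffeine, aromatic amines and estradiol, had a strong signal in all hSRY-OFF livers and almost none in hSRY-ON livers. Probe ILMN_2739847 read 2273, 3053 and 2811 intensity units in hSRY-OFF replicates 1, 2 and 3 before normalization. On hSRY-ON replicates 1, 2 and 3 it read 159, 165 and 167, close to the medians of these arrays. The hSRY-OFF values were thus 14.0 to 19.1 times the array median and the hSRY-ON values 0.967 to 1.14 times. Probe ILMN_2795106 read 2368, 2990 and 2792 in the hSRY-OFF group. Its hSRY-ON values were 154, 147 and 177. The groups did not overlap at either probe. Among the 3 tested member probes both *Cyp1a2* probes lay wholly lower in hSRY-ON and the *Arnt* probe wholly higher, while 24.6% of all tested probes lay wholly lower and 25.4% wholly higher. Since *Cyp1a2* was selected on this contrast, nothing is read from that count.

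The hSRY-ON signal of *Cyp1a2* was at the limit of detection. Both probes were detected on all 3 hSRY-OFF arrays, and on 1 of 3 hSRY-ON arrays, replicate 3, with detection p-values of 0.00877 and 0.00251. On hSRY-ON replicates 1 and 2 the detection p-values were 0.138 and 0.0401 for ILMN_2739847, and 0.224 and 0.239 for ILMN_2795106. Among the hSRY-ON arrays a signal above the negative controls was therefore called on replicate 3 only.

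On the normalised log2 scale ILMN_2739847 averaged 11.27 ± 0.34 in hSRY-OFF and 5.36 ± 0.41 in hSRY-ON (SD, n = 3 each), a difference of -5.91 ± 0.25 (SE of the fit). For ILMN_2795106 the means were 11.28 ± 0.30 and 5.23 ± 0.70, a difference of -6.05 ± 0.34. With the undetected hSRY-ON arrays set to the detection floor of each array the differences were -5.56 and -5.48, a level 47.3-fold and 44.7-fold lower. Without hSRY-ON replicate 3 the fitted differences were -6.14 and -6.49. The size depended on how the array background was treated: without background correction the differences were -3.97 and -4.02, and the ratios of the deposited mean intensities, hSRY-OFF over hSRY-ON, were 16.6 and 17.1. The hSRY-OFF arrays lay above the hSRY-ON arrays at both probes under each setting tried.

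*Arnt*, the partner that the receptor shares with the hypoxia-inducible factors, was measured by 1 of its 2 probes. ILMN_2728802 read 237, 274 and 205 units in hSRY-OFF replicates 1, 2 and 3. The same probe read 339, 375 and 296 in the hSRY-ON replicates, so the lowest hSRY-ON array lay above the highest hSRY-OFF array. It was detected on all 6 arrays. The normalised means were 6.78 ± 0.20 and 7.75 ± 0.24 (SD, n = 3 each), a difference of 0.97 ± 0.17 (SE), or 1.96-fold. The difference was 0.54 without background correction and 0.84 to 1.08 when each array was left out in turn. The other *Arnt* probe, ILMN_2607563, stayed between 126 and 138 on all arrays with a lowest detection p of 0.345, so the second probe gave no reading against which the first could be set.

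The receptor itself and its other targets in the group were not detected. *Ahr* (ILMN_2737460) read 148, 143 and 140 in hSRY-OFF and 134, 132 and 124 in hSRY-ON, with a lowest detection p of 0.227. Although its hSRY-ON values were all below its hSRY-OFF values, every one lay below the median of its array, and no fold change is given. *Cyp1a1* (ILMN_2613985) read 144, 140 and 129 against 137, 139 and 128, with overlapping groups. *Tiparp* (ILMN_2589291) read 130, 143 and 123 against 134, 133 and 128, again overlapping. A signal at background does not show that a transcript was absent, since the probes of *Glul*, *Tdo2* and *Hsp90aa1*, genes well known to be transcribed in liver, were likewise detected on 0 of the 6 arrays. Whether the *Ahr*, *Cyp1a1* and *Tiparp* probes can detect their transcripts was not tested.

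**Figure D1:**
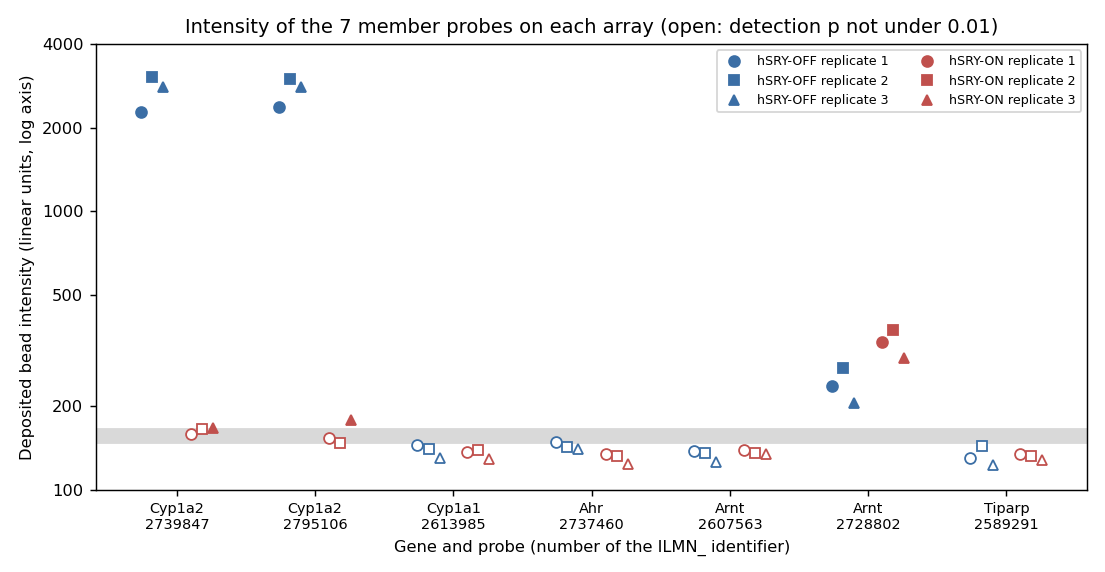
Deposited bead intensity (linear units on a log axis) of each of the 7 member probes on the 3 hSRY-OFF (blue) and 3 hSRY-ON (red) arrays, with filled symbols for detected values and a grey band from the lowest to the highest array median (147 to 165). The 2 *Cyp1a2* probes fall from 2273 units or more to about the band, ILMN_2728802 of *Arnt* rises within a low range, and the other 4 probes stay below or at the band on all 6 arrays.

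The genes whose profile over the arrays lay nearest to that of *Cyp1a2* were also low in hSRY-ON. With each probe centred on its hSRY-OFF mean, the second *Cyp1a2* probe was the closest to ILMN_2795106 of all tested probes, with a root mean square distance of 0.26 log2 units over the 6 arrays. The 5 nearest other genes were *Serpina6* (0.43), which encodes corticosteroid-binding globulin, *Dnaic1* (0.66), an axonemal dynein chain, *Car3* (0.95), a carbonic anhydrase, *D630003M21Rik* (1.02) and *Inmt* (1.04), an indolethylamine N-methyltransferase. Their differences ranged from -7.26 for *Car3* to -4.66 for *D630003M21Rik*. *Serpina6*, *Car3* and *D630003M21Rik* were detected on 0 hSRY-ON arrays, so that they were at least 31.5-fold, 67.2-fold and 14.1-fold lower. *Dnaic1* shared with *Cyp1a2* a higher value on hSRY-ON replicate 3 (7.81) than on replicates 1 and 2 (5.51 and 6.74). *Arnt* lay 4.99 log2 units from *Cyp1a2*, with 10080 tested probes closer. Likeness over 6 arrays in 2 groups mostly reflects the size of the group difference, and genes chosen in this way are described without a test.

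**Figure D2:**
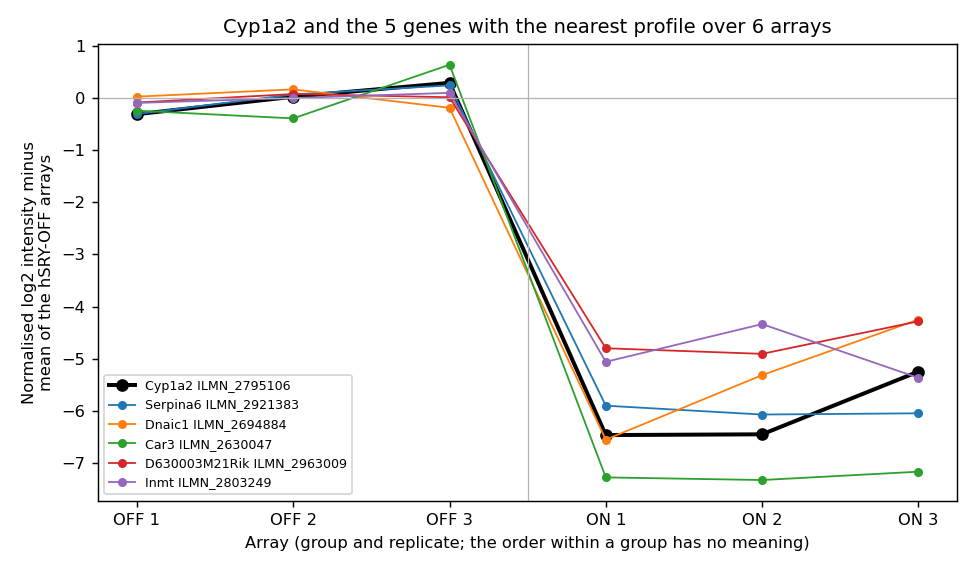
Normalised log2 intensity minus the mean of the hSRY-OFF arrays (vertical axis) on each of the 6 arrays (horizontal axis, hSRY-OFF left and hSRY-ON right) for *Cyp1a2* ILMN_2795106 (black) and the 5 genes nearest to it, 1 line per probe. All 6 lines lie near 0 in hSRY-OFF and far below 0 in hSRY-ON, where the order of the lines differs between arrays.

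The genes flanking the *Cyp1a2* and *Cyp1a1* pair were mostly not called. Of the 5 protein-coding genes on each side in RefSeq order, 9 of 10 had a probe and 5 were tested, with 1 lower in hSRY-ON and 0 higher (limma with Benjamini-Hochberg adjustment, against 17.3% called lower and 15.8% called higher among all tested probes). The gene called was *Csk*, a tyrosine kinase that restrains Src kinases and the nearest tested neighbour. It averaged 10.03 ± 0.19 in hSRY-OFF and 9.48 ± 0.04 in hSRY-ON (SD, n = 3 each), a difference of -0.55 ± 0.13 (SE, limma adjusted p = 0.0184). Its call was lost without hSRY-OFF replicate 1, hSRY-OFF replicate 2 or hSRY-ON replicate 1 (limma adjusted p up to 0.0767). The differences of *Scamp2*, *Clk3*, *Arid3b* and *Ubl7* lay between -0.34 and 0.35 and did not pass the threshold. The fitted differences of the *Cyp1a2* probes themselves, -5.91 and -6.05, stand beside these as a description.

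Other target genes of the receptor showed no common direction. Of 20 such genes besides *Cyp1a1*, *Cyp1a2* and *Tiparp*, 16 were on the array, and 8 genes with 12 probes were tested: 1 probe was higher in hSRY-ON (8.33%, against 15.8% of all tested probes), 2 were lower (16.7%, against 17.3%) and 9 did not pass the threshold, with a median difference of -0.06 against 0.02 over all tested probes. The 2 lower probes both belonged to *Ugt1a6a*, a glucuronosyltransferase of the classical receptor battery. ILMN_1212835 read 10.96, 10.90 and 10.80 in hSRY-OFF and 10.23, 10.34 and 10.05 in hSRY-ON, a difference of -0.68 ± 0.13 (SE, limma adjusted p = 0.00669). The groups did not overlap, but the probe sequences were not used here, and a sequence shared with other *Ugt1a* transcripts could not be checked. The other probe, ILMN_2795317, differed by -0.74, and its call was lost when hSRY-OFF replicate 1, 2 or 3 or hSRY-ON replicate 1 was left out (limma adjusted p up to 0.0902). The higher probe was that of *Cyp2s1*, an extrahepatic P450 induced by dioxin, at 5.73, 6.18 and 5.74 in hSRY-OFF and 8.0, 6.84 and 6.75 in hSRY-ON. Its difference was 1.31 ± 0.33 (SE, limma adjusted p = 0.0215), the hSRY-OFF group was detected on 2 of 3 arrays, and the call was lost without hSRY-OFF replicate 1 or 3 (limma adjusted p up to 0.0765).

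Several well-known targets did not pass the test. *Nqo1*, the quinone reductase of the receptor battery, differed by -0.60 ± 0.25 (SE, limma adjusted p = 0.101) with overlapping groups. The 3 tested *Cyp2a5* probes, which read the coumarin hydroxylase and may also read its near-identical relative *Cyp2a4*, differed by 1.04 to 1.20, all upward and with no overlap between groups, but with limma adjusted p-values of 0.0653 to 0.108. *Cyp1b1*, a further P450 of the family, was detected on no array. Without hSRY-ON replicate 3 the list held 4 probes called higher, and when each array was left out in turn 0 to 4 probes were higher (0 without hSRY-OFF replicate 1 or 3, and 3 without hSRY-ON replicate 2) and 1 to 3 lower (1 without hSRY-ON replicate 1 or any single hSRY-OFF array). At these counts the list held no direction that was stable against the choice of arrays. Of the 13 list genes with a promoter window, 5 (38.5%) held the GCGTG core, against 30.9% of all genes in the table.

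The proteins that hold and assist the receptor were called at shares near those of all tested probes. Of 14 chaperone and coactivator genes, 8 with 10 probes were tested, 2 probes were higher (20%, against 15.8% of all tested probes) and 1 lower (10%, against 17.3%), and the median difference was 0.14. *Hsp90ab1*, which encodes the constitutive cytosolic Hsp90, read 12.41, 12.43 and 12.26 in hSRY-OFF and 12.95, 12.84 and 12.75 in hSRY-ON, a difference of 0.48 ± 0.12 (SE, limma adjusted p = 0.0199). Of its other 2 probes, 1 was called at 0.55 and 1 was not at 0.23. Both calls were lost without any one of the 3 hSRY-OFF arrays or without hSRY-ON replicate 1, and under median or trimmed-mean scaling (limma adjusted p up to 0.223). *Ncoa3*, a histone acetyltransferase coactivator, was above background on the 3 hSRY-OFF arrays but on 0 of hSRY-ON and was at least 1.21-fold lower (limma adjusted p = 0.00653). Its probe entered the test only through hSRY-OFF, which favours a lower call.

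The bHLH-PAS relatives that compete for or share Arnt were mostly undetected. Of 14 such genes, 3 were tested, *Clock*, *Epas1* and *Hif1a*, and their 4 probes differed by -0.05 to 0.14. None passed the threshold of the limma test (0 called, and 0 at an unadjusted p under 0.05). *Ahrr*, the repressor that is itself a target of the receptor, was detected on 1 hSRY-ON array and 0 hSRY-OFF arrays and was not tested. Its deposited intensities of 169, 171 and 154 in hSRY-OFF and 183, 189 and 156 in hSRY-ON overlapped, while the normalised values of 5.25, 5.26 and 5.34 against 5.60, 6.05 and 5.42 did not.

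Enzymes that make and use kynurenine, a tryptophan metabolite that activates the receptor, were mostly lower in hSRY-ON liver among those tested. Of 13 such genes 12 were on the array and 7 with 15 probes were tested, of which 13 probes of 6 genes were lower (86.7%, against 17.3% of all tested probes) and 0 higher (against 15.8%), with a median difference of -1.74. Of these 15 probes 7 read *Afmid*, so that over the 7 genes, each by the median of its probes, the median was -0.91, and with the brightest probe per gene alone 5 genes were lower. *Afmid*, the formamidase that releases kynurenine, read 9.73, 9.73 and 9.94 in hSRY-OFF and 7.77, 7.74 and 7.90 in hSRY-ON at ILMN_2597013. The difference was -2.0 ± 0.12 (SE, limma adjusted p = 0.000133), and the other 6 probes gave -2.10 to -1.74. *Haao*, which opens the ring of 3-hydroxyanthranilate on the way to NAD, read 12.00, 12.01 and 12.26 in hSRY-OFF and 9.26, 8.87 and 10.15 in hSRY-ON. Its difference was -2.66 ± 0.31 (SE, limma adjusted p = 0.00106), again with no overlap, and hSRY-ON replicate 3 was the highest of its group.

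Further enzymes of this list had smaller fitted differences. *Il4i1*, an amino acid oxidase whose products activate the receptor, was above background on the 3 hSRY-OFF arrays but on 0 of hSRY-ON and was at least 1.42-fold lower (limma adjusted p = 0.00202). Lower probes of the list detected on 0 hSRY-ON arrays, *Il4i1* included, entered the test only through hSRY-OFF, which favours a lower call. The genes that follow in this paragraph were named after their values were seen. The 2 probes of *Ccbl1* (now *Kyat1*), a kynurenine aminotransferase, differed by -0.77 and -0.71. *Ccbl2* (now *Kyat3*) was called at the dim probe ILMN_2994977 only. That probe was detected on 0 hSRY-ON arrays and was at least 1.48-fold lower (limma adjusted p = 0.0146). The brighter *Ccbl2* probe, ILMN_1256103, differed by -0.69 and did not pass (limma adjusted p = 0.0545). *Kynu*, kynureninase, differed by -0.79 (limma adjusted p = 0.0182), and its call was lost without hSRY-OFF replicate 3 or hSRY-ON replicate 1 (limma adjusted p up to 0.0590). *Qprt*, a further enzyme on the route to NAD, differed by -0.18 and did not pass. *Tdo2*, *Ido1* and *Ido2*, the dioxygenases that open the pathway, and *Kmo* were detected on no array, so the entry step was not measured.

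**Figure D3:**
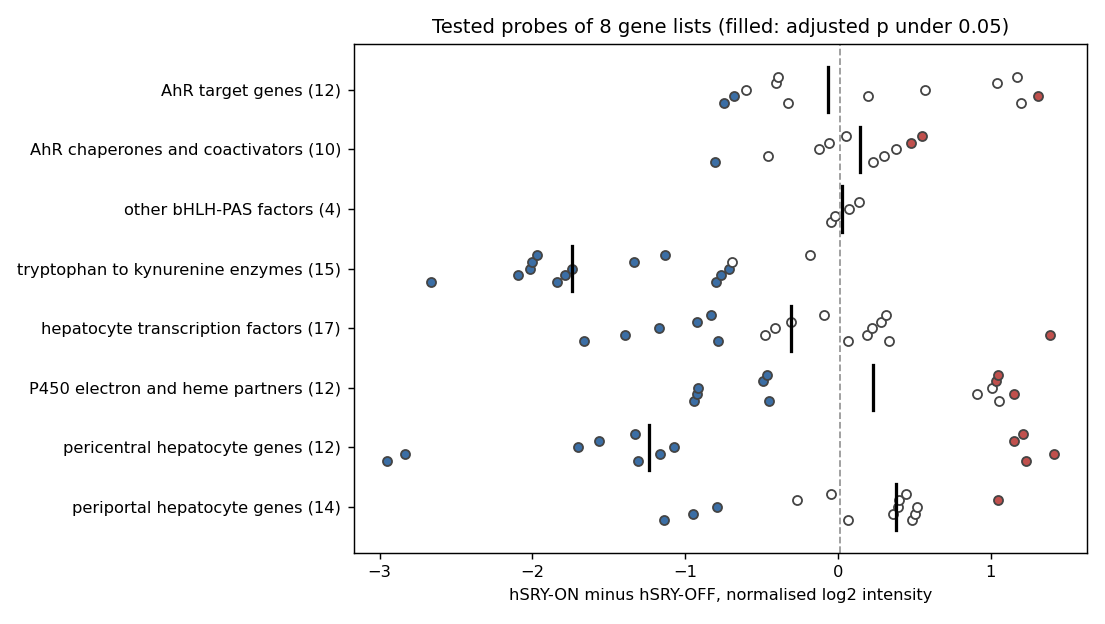
Difference hSRY-ON minus hSRY-OFF (horizontal axis, normalised log2 intensity) of each tested probe of the 8 gene lists (rows, with the number of tested probes), filled blue where called lower and red where called higher. Black bars are list medians and the dashed line is the median of all tested probes (0.02). The kynurenine enzymes lie almost wholly to the left (median -1.74), the pericentral genes fall into a lower and a higher group, and the receptor targets lie on both sides of 0.

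The electron and heme partners that P450 enzymes such as Cyp1a2 need moved in both directions. Of 8 genes with 12 tested probes, 3 probes were higher (25.0%, against 15.8% of all tested probes) and 6 lower (50%, against 17.3%), and the median difference was 0.23. The count of 6 held under none of the alternatives, which gave 2 to 5, and *Pgrmc1*, a heme-binding membrane protein named after its values were seen (-0.46, limma adjusted p = 0.0466), lost its call in each of the 16 fits that left the threshold unchanged. *Alas1*, the rate-limiting enzyme of heme synthesis in liver, read 11.17, 11.16 and 11.19 in hSRY-OFF and 12.30, 12.35 and 12.33 in hSRY-ON, a difference of 1.16 ± 0.11 (SE, limma adjusted p = 0.000434). The heme oxygenases *Hmox2* and *Hmox1*, which break heme down, were higher by 1.05 and 1.03 (limma adjusted p = 0.00293 and 0.00452). *Cyb5r3*, which reduces cytochrome b5, was lower at all 3 of its probes, by -0.91 ± 0.11 (SE, limma adjusted p = 0.00121) at ILMN_2904686, and the call of ILMN_2712873, at -0.49, was lost without hSRY-OFF replicate 1 or 2 or hSRY-ON replicate 1 (limma adjusted p up to 0.0779). *Cyb5* (now *Cyb5a*), cytochrome b5 itself, differed by -0.92 (limma adjusted p = 0.0107). *Cyb5b*, the outer mitochondrial form, differed by -0.45 (limma adjusted p = 0.0364). The *Cyb5b* call was lost without any one array other than hSRY-ON replicate 3 (limma adjusted p up to 0.132). The 3 probes of *Por*, the reductase that supplies most electrons to microsomal P450s, differed by 0.91 to 1.06 and did not pass (limma adjusted p from 0.0647 to 0.0884). Without hSRY-ON replicate 3 the list held 6 probes called higher, and without hSRY-OFF replicate 1, hSRY-OFF replicate 2 or hSRY-ON replicate 1 it held 3 called lower.

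Since *Cyp1a2* is a pericentral gene of the liver lobule, the other genes of that zone were examined. Of 15 such genes 9 with 12 probes were tested and each tested probe passed the threshold: 8 probes of 7 genes were lower (66.7%, against 17.3% of all tested probes) and 4 probes of 2 genes were higher (33.3%, against 15.8%), with a median of -1.24. Several of the lower probes were detected on all 3 hSRY-OFF arrays but on at most 1 hSRY-ON array. These entered the test through hSRY-OFF, which favours a lower call, so the share called lower was partly set by the filter. *Rhbg*, an ammonia transporter, read 8.01, 7.95 and 7.98 in hSRY-OFF and was detected on 0 hSRY-ON arrays, at least 4.83-fold lower (limma adjusted p = 6.79e-05). Without background correction its fitted difference was -1.29 in place of -2.95. *Gulo*, which makes ascorbate in mice, read 13.03, 13.13 and 13.01 against 11.86, 11.70 and 11.69, a difference of -1.31 ± 0.12 (SE, limma adjusted p = 0.00038). *Axin2*, a target of Wnt signalling, read 7.91, 8.32 and 7.80 against 6.30, 6.11 and 6.52, a difference of -1.70 ± 0.18 (SE, limma adjusted p = 0.000758). In each of these genes the 2 groups were well apart relative to their spread.

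*Cyp2e1*, the ethanol-oxidising P450 whose zone resembles that of *Cyp1a2*, was named after its values were seen. It read 13.87, 14.22 and 14.25 in hSRY-OFF and 10.58, 11.87 and 11.38 in hSRY-ON, a difference of -2.84 ± 0.31 (SE, limma adjusted p = 0.000893). It was still detected on all 3 hSRY-ON arrays, unlike *Cyp1a2*. *Lgr5* and *Tbx3*, a receptor acting in Wnt signalling and a transcription factor of the innermost hepatocytes, were also named afterwards. Both were detected on 0 hSRY-ON arrays and were at least 1.43-fold and 1.48-fold lower (limma adjusted p = 0.00198 and 0.00240). The 2 genes of the list that rose were *Cyp27a1*, a sterol hydroxylase of bile acid synthesis, and *Oat*, ornithine aminotransferase. They were higher by 1.42 ± 0.28 and 1.23 ± 0.30 (SE, limma adjusted p = 0.00848 and 0.0185). The *Oat* call was lost without hSRY-OFF replicate 1, hSRY-OFF replicate 2 or hSRY-ON replicate 1 (limma adjusted p up to 0.0691). Leaving out any of these 3 arrays in turn gave 1 probe called higher in place of 4, leaving out hSRY-OFF replicate 3 or hSRY-ON replicate 2 gave 2, while 8 probes were lower whichever array was left out.

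Genes of the opposite, periportal zone were called at shares not far from those of all tested probes. Of 13 genes, 11 with 14 probes were tested, 1 probe was higher (7.14%, against 15.8%) and 3 lower (21.4%, against 17.3%), and the median difference was 0.38. *Arg1*, arginase of the urea cycle, read 12.21, 12.29 and 12.45 in hSRY-OFF and 13.14, 13.70 and 13.26 in hSRY-ON, a difference of 1.05 ± 0.17 (SE, limma adjusted p = 0.00413). *Gls2*, the liver glutaminase, differed by -1.14 (limma adjusted p = 0.013). *Ctsc*, a lysosomal protease, was detected on 0 hSRY-ON arrays and was at least 1.30-fold lower (limma adjusted p = 0.00299). Its probe entered the test only through hSRY-OFF, which favours a lower call. Without hSRY-ON replicate 3 the list held 3 probes called higher, and without hSRY-OFF replicate 3 it held 2. The difference between the pericentral and the periportal list was not tested.

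**Figure D4:**
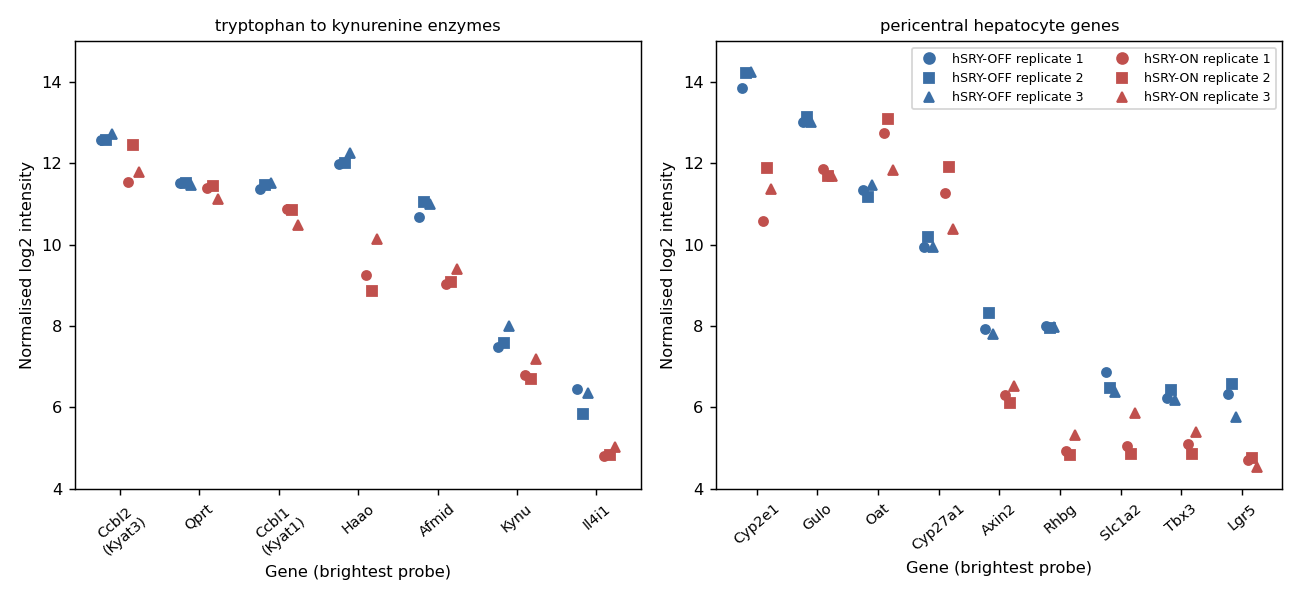
Normalised log2 intensity (vertical axis) on each array of the brightest tested probe of each gene among the kynurenine enzymes (left) and the pericentral genes (right), in hSRY-OFF (blue) and hSRY-ON (red), with a symbol for each replicate. *Haao* and *Afmid* on the left and *Cyp2e1*, *Rhbg* and *Axin2* on the right separate the groups by more than their spread, *Qprt* lies close together, and *Oat* and *Cyp27a1* are higher in hSRY-ON.

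Transcription factors of hepatocytes were measured as a further background for *Cyp1a2*. Of 17 genes, 15 with 17 probes were tested, 1 probe was higher (5.88%, against 15.8% of all tested probes) and 6 were lower (35.3%, against 17.3%), with a median of -0.31. *Cebpa*, a regulator of mature hepatocyte genes, read 9.65, 9.69 and 9.76 in hSRY-OFF and 8.34, 8.40 and 7.38 in hSRY-ON, a difference of -1.66 ± 0.27 (SE, limma adjusted p = 0.00392). *Nr1i3*, which encodes the xenobiotic receptor CAR, read 9.60, 9.93 and 10.15 against 8.10, 8.73 and 8.68, a difference of -1.39 ± 0.22 (SE, limma adjusted p = 0.00349). *Foxa3* was lower by -0.92 (limma adjusted p = 0.00449), and *Cebpb*, an acute-phase relative of *Cebpa*, was higher by 1.39 ± 0.20 (SE, limma adjusted p = 0.00266). *Hnf4a*, the central regulator of hepatocyte identity, differed by -0.09 ± 0.21 (SE) and did not pass. Without hSRY-OFF replicate 1 the list held 3 probes called lower.

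In whole liver, fewer cells of a type and less RNA per cell cannot be told apart. Of the hepatocyte markers, the check of the labelled tissue, *Ahsg*, *Apoa1*, *Trf* and *Ttr* were bright in both groups. The *Fgb* probe was detected on 0 hSRY-OFF arrays and 1 hSRY-ON array. *Alb* read only 269 to 448 units in hSRY-OFF and 202 to 269 in hSRY-ON, and how well its probe reads the transcript was not tested. The summed normalised intensity over 8 marker probes was 158100 to 162100 in hSRY-OFF and 143200 to 151300 in hSRY-ON, a ratio of 0.920. In that sum 3 probes, of *Ahsg*, *Apoa1* and *Trf*, read at least 68.1% of the array maximum, where differences may be compressed, and without them the sums were 38700 to 42360 against 30180 to 33660, a ratio of 0.788. Of the 7 tested hepatocyte marker probes 3 were lower (*Afp*, *Alb* and *Ttr*, 42.9%) and 0 higher. Among all tested probes 17.3% were called lower and 15.8% higher, against which the marker counts here are to be read. The sums of erythroid markers were 64780 to 85090 against 84640 to 96670, with overlapping ranges (5 of 11 tested probes higher, 45.5%, and 0 lower). In that sum *Hba-a1* was the brightest probe of each array. Its normalised value was 15.50 on all 6 arrays, so it added the same amount to each sum. The sums of Kupffer cell markers were 6218 to 8460 against 4189 to 5475 (1 of 9 higher, 11.1%, and 4 lower, 44.4%), with the Kupffer cell lectin *Clec4f* lower at both probes and *Cd5l* detected on 0 arrays. The stellate cell sum was 9588 to 11010 against 17270 to 19850 (5 of 9 higher, 55.6%, and 2 lower, 22.2%), in which the 4 probes of *Acta2*, a smooth muscle actin, rose by 2.45 to 3.12. Without *Acta2* the remaining 5 probes summed to 7608 to 8690 against 5144 to 5411, a ratio of 0.654. That sum mostly reads *Reln*, which averaged 12.82 in hSRY-OFF, with *Col1a1* next at 8.94. *Reln* was lower by -0.66 and *Lrat*, which esterifies retinol, at least 2.23-fold lower. In contrast *Des* was higher by 0.77, while *Col1a1* (-0.47) and *Pdgfrb* (0.24) did not pass the threshold. Sums of endothelial markers (9542 to 11580 against 8185 to 10540), biliary markers (81.8 to 115 against 61.9 to 106) and neutrophil markers (45330 to 52290 against 30000 to 90690) also overlapped between groups. Of the 8 tested endothelial probes 3 were higher (37.5%), *Lyve1* by 1.94 and *Pecam1* by 0.64 at both probes, and 1 lower (12.5%), *Clec4g* by -0.58. In contrast, 0 of the 1 biliary and 9 neutrophil probes were called by limma (0 and 1 at an unadjusted p under 0.05). The mean hSRY-ON sum over the mean hSRY-OFF sum lay between 0.653 for Kupffer cell markers and 1.84 for stellate cell markers with *Acta2* included. The part of cell composition in the values above was not tested.

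**Figure D5:**
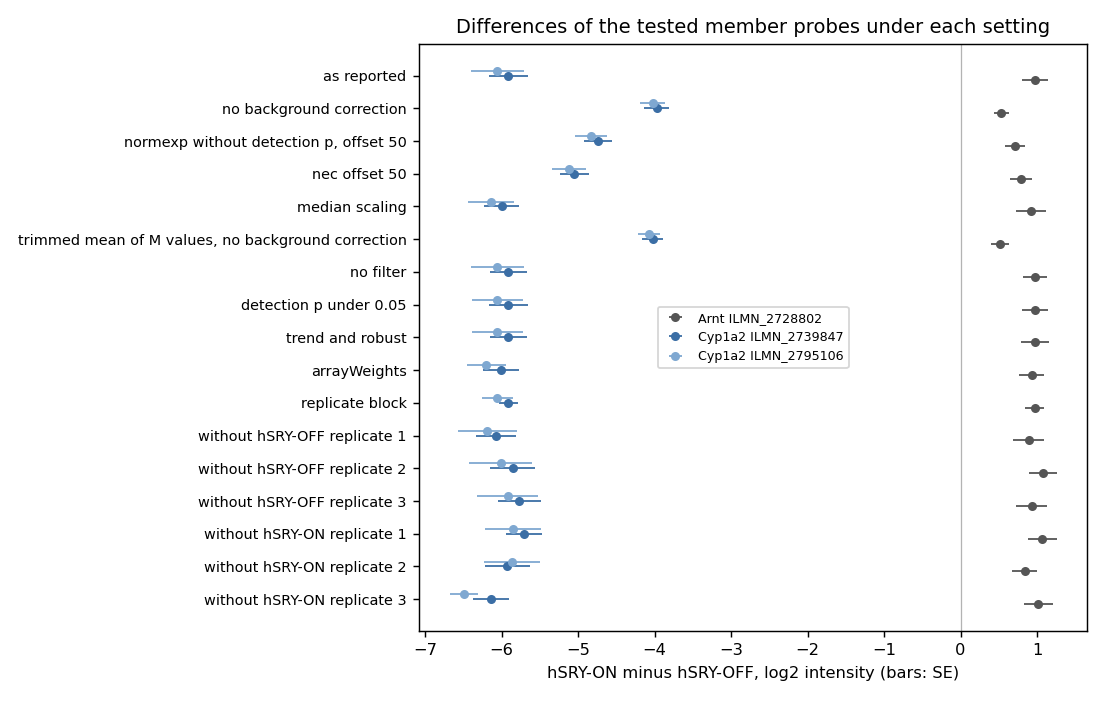
Difference hSRY-ON minus hSRY-OFF (horizontal axis, log2 intensity, bars give the SE of the fit) of the 3 tested member probes under the reported processing and 16 alternatives (rows). Both *Cyp1a2* probes stay between -6.49 and -3.97 and *Arnt* between 0.52 and 1.08, and the settings without background correction give the smallest differences.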

How the data were processed

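Liver RNA of male pups, 3 per group (hSRY-ON and hSRY-OFF), was measured with MouseRef-8 v2.0 BeadChips, grouped by the sample labels. The table the authors deposited held for each of 25697 probes a mean bead intensity on a linear scale, neither background-subtracted nor normalized, and a detection p-value, which the authors deposited beside each intensity. Scanner software, array positions and genome build are not given in the sources used here. The study names TCC, a tool for counts, and the submitters' processing notes list limma. No count model was fitted to these intensities.

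With limma 3.58.1 in R 4.3.3, background was removed by nec (offset 16), which uses the detection p-values, and the intensities were quantile normalized and log2 transformed. Probes detected (p under 0.01) on at least 3 of 6 arrays were tested with lmFit and eBayes without covariates, two-sided, with Benjamini-Hochberg adjustment over 10734 probes and a threshold of 0.05. The test was checked on simulated data. Where 0 arrays of a group detected a probe, the fold is a bound: the mean of the brighter group against the higher of each array's detection floor and the probe's own signal. Floor values of *Cyp1a2* were obtained likewise. A probe given with a bound passed the filter only through its brighter group, so its call and p-value are not independent of the filter. The precision is limited by 3 arrays per group, and p-values describe the spread between these mice. Of 18138 symbols, 14307 were current in RefSeq GRCm38.p6, 2927 matched through an older name and 904 were unmatched. Different probes of a gene were kept apart.

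The members, lists and tests were chosen with earlier results of these data known. Named were all members, in each list up to 3 genes in each direction with the smallest p, and the 5 genes nearest to *Cyp1a2* in profile. Other genes were not fixed by this rule. Some of them are stated to be named after their values were seen, and *Nqo1*, *Cyp2a5*, *Cyp1b1*, *Por* and *Hnf4a* were not picked by it either. The neighbours of *Cyp1a2* were taken by gene order, and hSRY-ON minus hSRY-OFF is on the log2 scale after the offset, which shrinks differences of dim probes. Alternatives covered background correction, scaling, filter, variance model, array weights, a replicate block, a threshold of 0.01, 1 probe per gene and leaving out each array.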

Additional observations from a re-analysis of the deposited data

How the results depend on the processing

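The differences of the 3 tested member probes, of *Cyp1a2* and *Arnt*, kept their direction under all 16 alternatives. Without background correction, with normexp without control information (offset 50), with nec at offset 50 and with TMM scaling (trimmed mean of M values), in this order, the difference of *Cyp1a2* was -3.97, -4.74, -5.05 and -4.02 at ILMN_2739847 and -4.02, -4.83, -5.11 and -4.07 at ILMN_2795106. A larger offset or an uncorrected background adds to the dim signal, which by construction shrinks the difference. *Arnt* gave 0.54, 0.71 and 0.52 under the first, the second and TMM. Leaving out each array gave -6.14 to -5.70 and -6.49 to -5.85 for *Cyp1a2* and 0.84 to 1.08 for *Arnt*. The number of all probes called was 1700 higher and 1854 lower, 693 and 972 at a threshold of 0.01, and 893 to 1944 higher and 1141 to 2116 lower with each array left out (893 and 1141 without hSRY-OFF replicate 1, 975 and 1191 without hSRY-OFF replicate 2). Of the receptor targets, 0 probes were higher under TMM, 3 with array weights and 0 at 0.01, and 4 were lower with array weights, 1 at 0.01 and 1 with the brightest probe per gene, while leaving out each array gave 0 to 4 higher and 1 to 3 lower. Of 46 called list and neighbour probes, 28 passed in each of the 16 fits that left the threshold unchanged, and 0 changed direction in these fits. Some of these 28 did not pass at 0.01, *Cyb5* among them (limma adjusted p = 0.0107). *Ctsc* and *Ncoa3* were not called under TMM (limma adjusted p = 0.0637 and 0.0693), nor was *Cyp2s1*, and the *Hsp90ab1* probes under TMM or median scaling. The pericentral list held 7 to 10 probes called lower. The kynurenine list held 12 to 14 with each array left out, and fewer at 0.01 or with 1 probe per gene. Dim probes shrank most without background correction, *Axin2* to -0.91, *Kynu* to -0.44 and *Cyp2s1* to 0.59. The cause of the other changes was not tested. Under each background and scaling setting the median difference of all tested probes lay within 0.04 of 0.

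No pairing by replicate number was seen: deviations of same-numbered arrays correlated at 0.0248, 0.0955 and 0.0523, against -0.170 to 0.133 for arrays of other numbers. With 3 arrays per group this cannot exclude pairing. With a replicate block 1565 probes were higher and 1645 lower, the *Cyp1a2* differences stayed at -5.91 and -6.05, and 3 of the 46 probes, *Cyb5b* among them, were no longer called. Probes near background carry only bounds, which limits what can be said of *Ahr*, *Cyp1a1* and *Tiparp*.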
